A study of Arabidopsis thaliana with 8 samples.

Results

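Exposing Arabidopsis thaliana to blue light, compared with keeping it in the dark, changed which messages its ribosomes were reading, and the change is described here across all genes from ribosome footprints. The 4 footprint libraries of the series were chosen by their labels, 2 from the blue light condition and 2 from the dark condition, out of 8 libraries in all. The other 4 are mRNA libraries of the same conditions and enter only as a companion value, the log2 change of mRNA between the conditions, given without a test. For the footprints, RNase I was used to digest RNA that ribosomes do not cover, and the ribosomes were then pelleted. The groups differ by the light condition alone as far as the labels go. Tissue, plant age, ecotype, light intensity and length of exposure are not given in the sources used here, and the labels do not say whether the 2 libraries of a group came from separate cultures or plants, so p-values measure only the spread between these libraries.

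A ribosome protects a short stretch of the message it is translating, so the number of footprints on a coding sequence follows both how much message there is and how densely ribosomes sit on it. Plants sense blue light through cryptochromes and phototropins. Light signalling restrains the COP1/SPA ubiquitin ligase and phytochrome-interacting factors, releases factors such as HY5, and in seedlings raised in darkness switches development from stem elongation on stored reserves to chlorophyll synthesis, chloroplast assembly and leaf expansion.

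The libraries held 4919808 and 3744422 footprint counts in blue light, against 2888624 and 3157879 in the dark. The mRNA libraries were shallower, with 794407 and 688630 mRNA counts in blue light, against 847469 and 806691 in the dark. Replicates agreed closely across loci (Spearman correlation 0.985 between the blue-light libraries and 0.983 between the dark libraries), and libraries of different conditions less so (0.964 to 0.965). Levels are given as CPM, counts scaled to a common library size, after trimmed mean of M-values (TMM) scaling, which sets the bulk of loci level between libraries. Without TMM the median change of all tested loci moved down by 0.226 on the log2 scale, so a change smaller than that has a direction only relative to the bulk. The pollen markers had no count in any library, and the root and root hair markers summed to 474 and 434 CPM in blue light, against 601 and 622 CPM in the dark. Seed and embryo markers summed to 69.8 and 273 CPM in blue light, against 299 and 203 CPM in the dark. The first blue-light library was the lowest of the 4 in them and the second lay within the dark range. Trichome and guard cell markers summed to 901 and 902 CPM in blue light, against 994 and 1077 CPM in the dark. The part of these markers in the results was not tested.

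At an adjusted p under 0.05 in edgeR's quasi-likelihood test, footprints rose in blue light on 3304 of 15788 tested loci (20.9%) and fell on 2671 (16.9%). The larger changes were mostly rises. At least 2-fold, 1436 loci rose (9.10%) and 675 fell (4.28%), and at least 16-fold, 73 rose and 8 fell. Regardless of the test, both blue-light libraries lay above both dark libraries at 33.6% of loci and below them at 33.9%. With library totals in place of TMM the balance of calls turned, with 2259 rises and 4998 falls. Rises then made up 31.1% of calls in place of 55.3%, and the median of all tested loci was -0.244. List counts and medians under library totals are to be read against these values. All 2671 falls were also called under library totals, as were 2259 of the rises, and no locus called as risen with TMM was called as fallen. Library totals moved log2 changes down across loci, which enlarges falls. That the falls stayed called was therefore set by the shift and is no test of them. Loci that rose at least 2-fold held 23.8% of blue-light footprints and 7.23% of dark footprints, while loci that fell at least 2-fold held 1.41% of blue-light and 5.23% of dark footprints. The risen loci had a median coding length of 387.5 codons and the fallen ones 315, against 386 for all tested loci. In bulk material, fewer cells of a type and less RNA per cell cannot be told apart, which touches every fall given here.

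**Figure D1:**
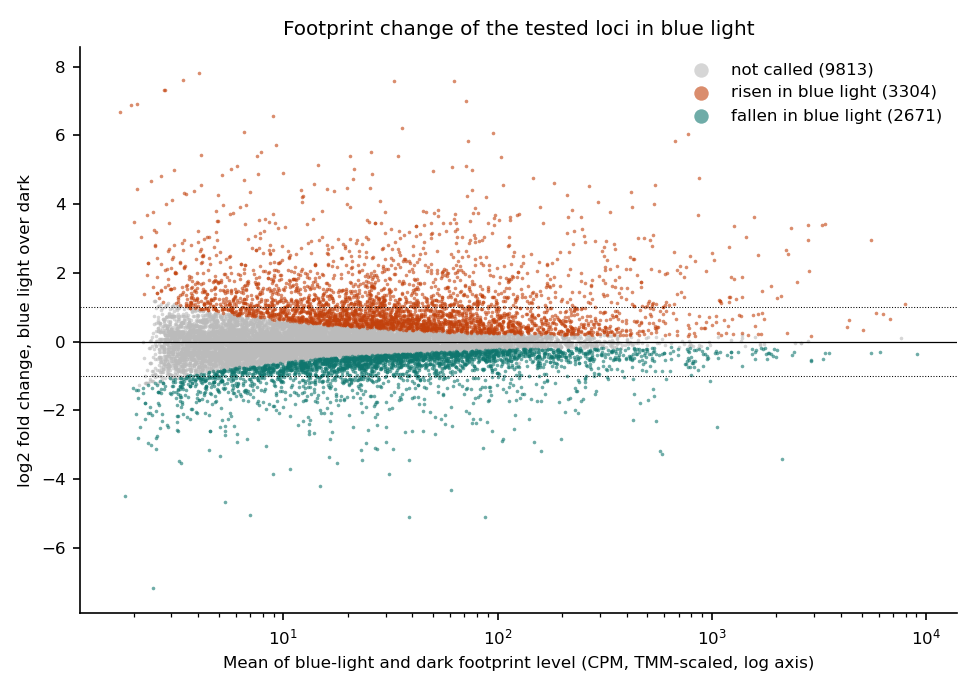
Fitted log2 fold change (blue light over dark) of each tested locus against the mean of its blue-light and dark footprint levels in CPM on a log axis, with 3304 risen and 2671 fallen loci coloured. Dotted lines mark 2-fold. The cloud reaches further above 0 than below it, and the values of loci with no count in one condition depend on the fit.

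The 12 genes that gained most CPM were CAB1, RBCS1A, CAB2, ICL, GUN5, LHB1B2, CAB3, HSC70-1, RBCS3B, RBCS1B, LHCB2.2 and LHCB2.1. A gain in CPM favours long and abundant messages, so it describes where ribosomes went and does not compare levels between genes. Of the 12, 6 encode the light-harvesting chlorophyll-binding proteins of photosystem II and 3 the small subunit of Rubisco, the carbon-fixing enzyme. RBCS1A, a small-subunit gene, had 10715 and 10980.2 CPM in blue light, against 5197 and 4981 CPM in the dark, a log2 change of 1.09 ± 0.06 (SE). CAB1, a light-harvesting gene, had 9594 and 9975 CPM in blue light, against 1289 and 1240.4 CPM in the dark, a log2 change of 2.95 ± 0.07. The CAB and LHCB genes, and likewise the RBCS genes, are near-identical copies whose reads the authors' counting could have split differently, so the values of single copies are uncertain.

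The other 3 gains had other roles. ICL, isocitrate lyase of the glyoxylate cycle that turns stored oil into sugar, had 5628 and 6227 CPM in blue light, against 593 and 528 CPM in the dark, a log2 change of 3.40 ± 0.08. Its mRNA value on the same scale was 1.32, from 1743 and 1461 mRNA counts in blue light, against 705 and 967 in the dark. GUN5, the H subunit of magnesium chelatase at the entry to chlorophyll synthesis, had 5164 and 5117 CPM in blue light, against 502 and 487 CPM in the dark. With 1372 codons it is the longest coding sequence of the 12, and per 100 codons its mean level was 375 CPM in blue light, against 36.01 CPM in the dark. HSC70-1, a cytosolic chaperone, had 4408 and 4724 CPM in blue light, against 1129.6 and 1076 CPM in the dark, a log2 change of 2.05 ± 0.07.

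Among the 12 genes that lost most CPM were XTH15, TIP2, CAT3, LTP2, PORB, DELTA-TIP, PORA, DYL1, SEN1, PBP1 and EXL2. PBP1 is a lectin that binds the beta-glucosidase PYK10. These genes mix large falls with small proportional falls of abundant messages. XTH15, which remodels xyloglucan in the cell wall, had 362 and 363 CPM in blue light, against 3820.4 and 3934 CPM in the dark, a log2 change of -3.42 ± 0.07. TIP2, an aquaporin of the vacuolar membrane, had 8229 and 7744 CPM in blue light, against 10390.2 and 9904 CPM in the dark, a log2 change of only -0.35 ± 0.06. The catalase CAT3 and the lipid transfer protein LTP2 likewise changed by -0.34 ± 0.06 and -0.30 ± 0.06. DYL1, a dormancy-associated protein, had 109 and 113 CPM in blue light, against 1052 and 1072 CPM in the dark, a log2 change of -3.26 ± 0.08. SEN1, a dark-inducible senescence gene, had 113 and 112 CPM in blue light, against 981 and 1074 CPM in the dark, a log2 change of -3.19 ± 0.08. EXL2, of the EXORDIUM-like family, had 617 and 599 CPM in blue light, against 1365 and 1344 CPM in the dark. The naming rule asks that the conditions do not overlap, so their separation in every gene it names is no finding.

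The 20 largest rises of named genes were CGA1, THI2.2, BBX32, F3H, ELIP1, ELIP2, PRR9, RUP2, SIGE, STH, UGT78D2, FADA, TT4, RPT2, ABCI20, VTC2, PDX1L4, ABCI21, RUP1 and PDX1.1, and the values of some are given here. FADA, also called FAD4, the desaturase that makes an unusual fatty acid of chloroplast phosphatidylglycerol, had 94.04 and 100.2 CPM in blue light, against 3.56 and 2.64 CPM in the dark, a log2 change of 4.96 ± 0.19 (adjusted p = 1.18e-18, edgeR). RPT2, a partner of phototropins in phototropism, had 1644 and 1697 CPM in blue light, against 55.3 and 68.6 CPM in the dark, a log2 change of 4.75 ± 0.09 (adjusted p = 2.25e-25, edgeR). RUP1, which shuts off signalling by the ultraviolet-B receptor UVR8, had 142 and 147 CPM in blue light, against 6.79 and 6.74 CPM in the dark. In all 3 genes the blue-light libraries lay at least an order of magnitude above the dark ones. PDX1.1, an enzyme of vitamin B6 synthesis, had 779.6 and 826 CPM in blue light, against 42.4 and 35.8 CPM in the dark, and the related short locus PDX1L4 had 202 and 205 CPM in blue light, against 10.02 and 7.33 CPM in the dark. These 2 are similar in sequence, so how reads were shared between them is uncertain. ABCI20 and ABCI21, a pair of ABC transporter ATP-binding proteins, changed by 4.61 ± 0.12 and 4.53 ± 0.11 on the log2 scale.

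VTC2 and VTC5 encode GDP-L-galactose phosphorylase, the committed enzyme of ascorbate (vitamin C) synthesis, and both rose. VTC2 had 1052 and 1026 CPM in blue light, against 40.4 and 47.2 CPM in the dark, a log2 change of 4.56 ± 0.09, beside an mRNA value of 0.56. VTC5, picked after its values were seen, had 45.4 and 45.2 CPM in blue light, against 3.88 and 3.81 CPM in the dark, a log2 change of 3.55 ± 0.21, beside an mRNA value of 0.06. The mRNA value of VTC2 rests on 37 and 40 mRNA counts in blue light, against 30 and 38 in the dark, and that of VTC5 on 5 and 10 mRNA counts in blue light, against 7 and 12 in the dark. The footprint rise of this pair was larger than the mRNA value beside it, but the difference was not tested. SIGE, a plastid sigma factor known to respond to blue light, had 204 and 202 CPM in blue light, against 3.88 and 5.86 CPM in the dark, a log2 change of 5.36 ± 0.15 beside an mRNA value of 4.79.

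Some of the largest changes lay on loci without a symbol in the reference table, or on loci too low for the naming rule, and these were picked after their values were seen. AT5G42760 had 293 and 225 counts in blue light, against 0 and 2 in the dark, and AT3G56290 had 139.6 and 146 CPM in blue light, against 2.59 and 2.34 CPM in the dark. NPF6.4 (AT3G21670), of the nitrate and peptide transporter family, had 129 and 109 CPM in blue light, against 2.59 and 4.40 CPM in the dark. AT5G57760 had 1.32 and 3.20 CPM in blue light, against 72.4 and 77.1 CPM in the dark, a log2 change of -5.11 ± 0.22. TZF5 (AT5G44260), a tandem CCCH zinc finger protein, had 4.18 and 5.83 CPM in blue light, against 169.8 and 169 CPM in the dark, and DJC24 (AT2G17880), of the DnaJ chaperone family, had 4.62 and 3.20 CPM in blue light, against 62.7 and 53.3 CPM in the dark. For 7 called loci no footprint was counted in either dark library. Among these, GDPD6, a glycerophosphodiester phosphodiesterase, had 27 and 35 counts in blue light, against 0 and 0 in the dark, at least 17.5-fold higher, and NDA1, an alternative NAD(P)H dehydrogenase of mitochondria, had 23 and 21 counts in blue light, against 0 and 0 in the dark, at least 12.1-fold higher. In the opposite direction the B-box gene bbx23 had 0 and 0 counts in blue light, against 16 and 16 in the dark, at least 13.1-fold lower. These bounds set the empty condition at 3 counts over its 2 libraries.

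**Figure D2:**
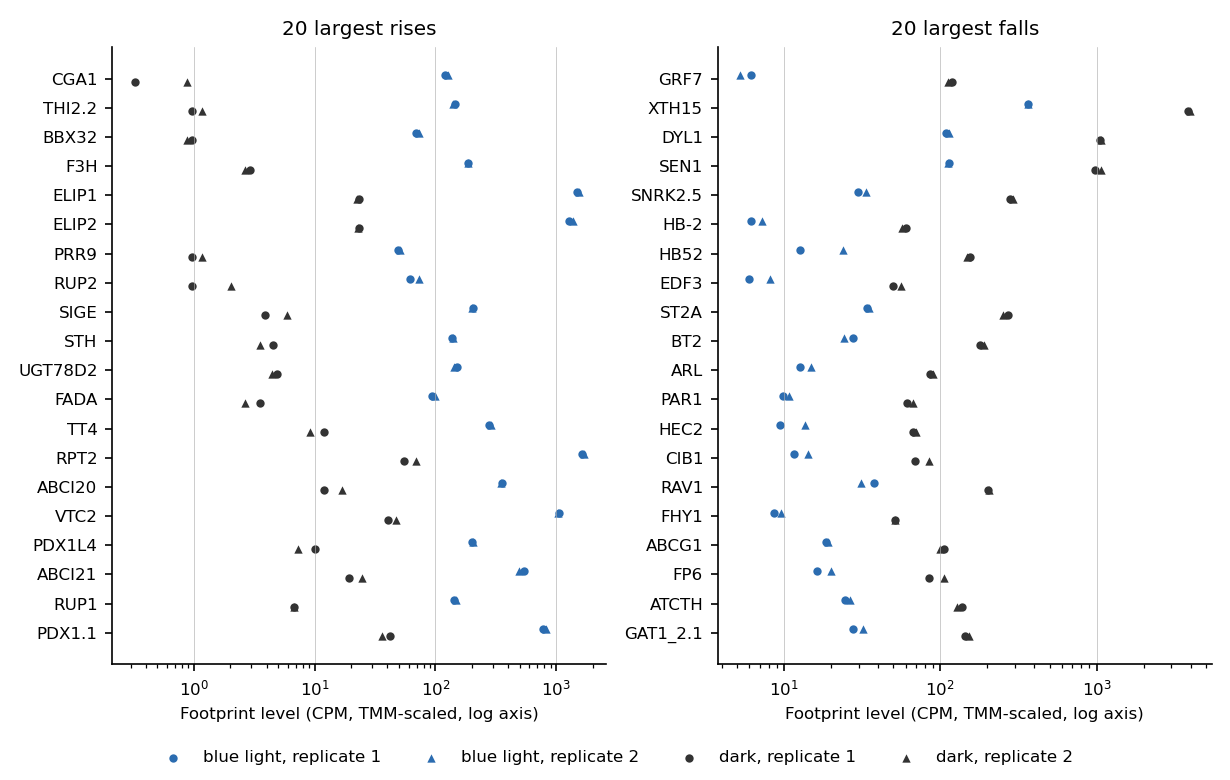
Footprint level in CPM (log axis) in each of the 4 libraries for the 20 largest rises (left) and 20 largest falls (right) among named genes, with blue-light libraries in blue and dark libraries in black. As the naming rule asks, the conditions do not overlap for any gene shown.

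The 20 largest falls of named genes were led by GRF7, a growth-regulating transcription factor, with 6.17 and 5.24 CPM in blue light, against 118 and 112 CPM in the dark, a log2 change of -4.31 ± 0.16 (adjusted p = 2.60e-19, edgeR). The other 19 were XTH15, DYL1, SEN1, SNRK2.5, HB-2, HB52, EDF3, ST2A, BT2, ARL, PAR1, HEC2, CIB1, RAV1, FHY1, ABCG1, FP6, ATCTH and GAT1_2.1. ARL, an ARGOS-like promoter of cell expansion, had 12.6 and 14.9 CPM in blue light, against 86.3 and 89.4 CPM in the dark. PAR1, an atypical bHLH protein that restrains shade-avoidance growth, had 9.91 and 10.8 CPM in blue light, against 60.8 and 66.8 CPM in the dark. FHY1, which carries phytochrome A into the nucleus, had 8.59 and 9.61 CPM in blue light, against 51.4 and 51.3 CPM in the dark, and CIB1, a bHLH partner of cryptochrome 2, had 11.5 and 14.3 CPM in blue light, against 68.6 and 84.4 CPM in the dark. In these 4 genes both dark libraries lay above both blue-light libraries. SNRK2.5, a kinase of the SnRK2 family, had 29.7 and 33.5 CPM in blue light, against 281 and 293 CPM in the dark, a log2 change of -3.19 ± 0.10. BT2, a BTB scaffold protein, and GAT1_2.1, a glutamine amidotransferase-like protein, changed by -2.83 ± 0.11 and -2.33 ± 0.11. ATCTH, another tandem CCCH zinc finger protein, had 24.4 and 26.5 CPM in blue light, against 138 and 127 CPM in the dark, and the HECATE factor HEC2 had 9.47 and 13.7 CPM in blue light, against 66.6 and 70.1 CPM in the dark.

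Footprints of photosynthesis genes rose across nearly whole groups. Every one of the 21 tested antenna proteins rose, with a median log2 change of 2.54 against -0.02 for all tested loci, and they took 5.07% and 5.16% of all footprints in blue light, against 1.11% and 1.06% in the dark. LHCA1, an antenna protein of photosystem I, had 1578 and 1620.3 CPM in blue light, against 124 and 125 CPM in the dark, a log2 change of 3.68 ± 0.08. LHCB3, of the photosystem II antenna, had 2942 and 2897 CPM in blue light, against 251 and 227 CPM in the dark, a log2 change of 3.61 ± 0.07. Of the 21 genes listed for the Calvin cycle and Rubisco, 20 rose, with a median of 1.34. FBA1, a chloroplast fructose-bisphosphate aldolase, had 875 and 831 CPM in blue light, against 111 and 101 CPM in the dark. GAPA and GAPB, the subunits of the chloroplast glyceraldehyde-3-phosphate dehydrogenase, changed by 2.57 ± 0.07 and 2.79 ± 0.08. The list's other called gene was TPI, named after its values were seen. It encodes the cytosolic triose-phosphate isomerase, so it is no enzyme of the chloroplast cycle. TPI had 442 and 427 CPM in blue light, against 504 and 521 CPM in the dark. Its log2 change of -0.24 ± 0.07 no longer passed without the second blue-light library (-0.21, adjusted p = 0.0721) or without the second dark library (-0.21, adjusted p = 0.0673), by edgeR.

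Pigment synthesis moved the same way. Of 13 tested carotenoid genes 11 rose and none fell, with a median log2 change of 0.81. PSY, phytoene synthase, which makes the first carotenoid of the pathway, had 613 and 606 CPM in blue light, against 84.1 and 87.1 CPM in the dark, a log2 change of 2.83 ± 0.08. ABA1, zeaxanthin epoxidase of the xanthophyll cycle, had 294 and 304 CPM in blue light, against 29.8 and 24.6 CPM in the dark, and the carotene hydroxylase BETA-OHASE 2 had 114 and 107 CPM in blue light, against 9.38 and 10.8 CPM in the dark. In tetrapyrrole synthesis 20 of 28 genes rose and 3 fell. HEMA1, glutamyl-tRNA reductase at the start of the pathway, had 978 and 1034 CPM in blue light, against 60.1 and 65.1 CPM in the dark. GUN4, an activator of magnesium chelatase, had 537 and 556 CPM in blue light, against 86.7 and 76.8 CPM in the dark. The falls included PORA and PORB, light-dependent protochlorophyllide reductases of the same pathway, at -0.55 ± 0.06 and -0.51 ± 0.06.

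The machinery that transcribes the chloroplast genome moved less evenly. Of 6 sigma factors, the nuclear-encoded subunits that guide the plastid polymerase, 4 rose. SIGA had 96.2 and 87.4 CPM in blue light, against 21.99 and 26.4 CPM in the dark, a log2 change of 1.92 ± 0.13, while its mRNA value was -0.76. SIGF changed by 0.52 ± 0.11. Of 15 plastid RNA polymerase-associated proteins 4 rose and none fell with TMM, against 2 and 2 with library totals. With TMM 11 were not called, and the rises were near the 20.9% of all tested loci. The DESeq2 Wald test called 2 rises. PTAC16 had 298 and 264 CPM in blue light, against 112 and 124 CPM in the dark, and PTAC2 had 75.3 and 70.8 CPM in blue light, against 35.2 and 37.8 CPM in the dark. Their mRNA values were 0.04 and -0.67. For SIGA and PTAC2 the footprint and mRNA values had opposite signs, but the mRNA values rest on few counts and the difference was not tested. SIGA had 8 and 8 mRNA counts in blue light, against 23 and 12 in the dark, and PTAC2 had 9 and 13 mRNA counts in blue light, against 19 and 27 in the dark.

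Flavonoid and phenylpropanoid enzymes, which make sunscreen pigments and lignin precursors, mostly rose. Of 15 listed flavonoid genes 8 were tested and 7 were not. Of the 8 tested, 7 rose, with a median log2 change of 4.16 over the 8. A gene low in the dark could pass the count filter on its blue-light counts alone, so the filter bears on this count and median. The 15 listed genes took 0.0771% and 0.0765% of all footprints in blue light, against 0.00412% and 0.00418% in the dark. Upstream, 9 of 15 phenylpropanoid genes rose and 1 fell. C4H, cinnamate 4-hydroxylase, had 573 and 541 CPM in blue light, against 244 and 232 CPM in the dark, a log2 change of 1.23 ± 0.07. PAL2, a phenylalanine ammonia-lyase, changed by 0.92 ± 0.08. ATCAD4, a cinnamyl alcohol dehydrogenase, had 270.0 and 278 CPM in blue light, against 78.9 and 75.04 CPM in the dark, and CCR1, cinnamoyl-CoA reductase, had 159.7 and 172 CPM in blue light, against 68.6 and 80.02 CPM in the dark. 4CL3, the 4-coumarate-CoA ligase isoform tied to flavonoids and picked after its values were seen, had 32.2 and 29.1 CPM in blue light, against 1.29 and 1.47 CPM in the dark.

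The glycosyltransferases that attach sugars to such products rose more often than they fell. Of 50 tested UDP-glycosyltransferases 21 rose and 6 fell with TMM, where 20.9% of all tested loci rose and 16.9% fell. With library totals 19 rose and 15 fell, where 2259 of all 15788 tested loci rose and 4998 fell. UGT84A2, which forms glucose esters of sinapate, had 421 and 476 CPM in blue light, against 43.3 and 48.4 CPM in the dark, a log2 change of 3.28 ± 0.10. UGT78D1, a flavonol rhamnosyltransferase, had 116 and 113 CPM in blue light, against 11.3 and 12.9 CPM in the dark, a log2 change of 3.23 ± 0.14. DOGT1, known to glucosylate brassinosteroids, had 139 and 141 CPM in blue light, against 16.2 and 16.1 CPM in the dark. All 3 were low in the dark relative to blue light. Cytochromes P450, a large family of oxidases, held both rises and falls. With TMM 40 of 118 rose and 22 fell, the falls near the 16.9% of all tested loci. With library totals all tested loci gave 2259 rises and 4998 falls, and the P450 genes 29 and 36. Without the second blue-light library 14 fell.

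Of 15 tested genes of sulfate assimilation 9 rose and 3 fell, with a median of 0.56. The falls came to 2 without either first library and to 1 without either second library. APR2, a chloroplast adenosine phosphosulfate reductase, had 618 and 629.5 CPM in blue light, against 42.7 and 48.9 CPM in the dark, a log2 change of 3.76 ± 0.09. The isoforms APR1 and APR3 changed by 3.04 ± 0.13 and 2.39 ± 0.09, and APS1, the ATP sulfurylase of the step before, by 0.95 ± 0.08. All 3 reductases therefore rose. Nitrogen assimilation split within an enzyme pair. NIA2, the major nitrate reductase, rose with 1159.7 and 1164 CPM in blue light, against 252 and 252 CPM in the dark, a log2 change of 2.20 ± 0.07. NIA1, the other nitrate reductase, fell with 425 and 406 CPM in blue light, against 769 and 739 CPM in the dark, a log2 change of -0.86 ± 0.07. GLU1, the ferredoxin-dependent glutamate synthase, had 1096 and 1000.4 CPM in blue light, against 409.7 and 364 CPM in the dark. The list as a whole had 4 rises and 4 falls among 18 genes with TMM. These are near the shares of all tested loci, 20.9% and 16.9%. With library totals the list had 4 rises and 8 falls.

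Of 15 iron genes 6 rose and 1 fell with TMM, with a median of 0.14. With library totals 4 rose and 2 fell, and the median was -0.09, against -0.244 for all tested loci. FRO6 and FRO7, ferric reductases of shoots, were low in the dark and were picked after their values were seen. FRO7 had 24.9 and 21.3 CPM in blue light, against 1.29 and 1.17 CPM in the dark, a log2 change of 4.20 ± 0.32, and FRO6 had 38 and 27 counts in blue light, against 1 and 0 in the dark. OPT3, a transporter that loads iron into phloem, had 103 and 91.8 CPM in blue light, against 55.9 and 46.02 CPM in the dark. In redox enzymes the catalases parted. CAT2, the catalase of photorespiration, rose with 2428 and 2601 CPM in blue light, against 937 and 892 CPM in the dark, a log2 change of 1.46 ± 0.07, whereas CAT3 fell as given above. Among 36 antioxidant enzymes 18 rose and 5 fell with TMM, against 13 and 10 with library totals, and 3 fell without the second dark library. GPX6, a glutathione peroxidase, changed by 1.09 ± 0.10, and MDAR4, a peroxisomal monodehydroascorbate reductase, had 70.9 and 83.6 CPM in blue light, against 37.2 and 34.3 CPM in the dark.

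**Figure D3:**
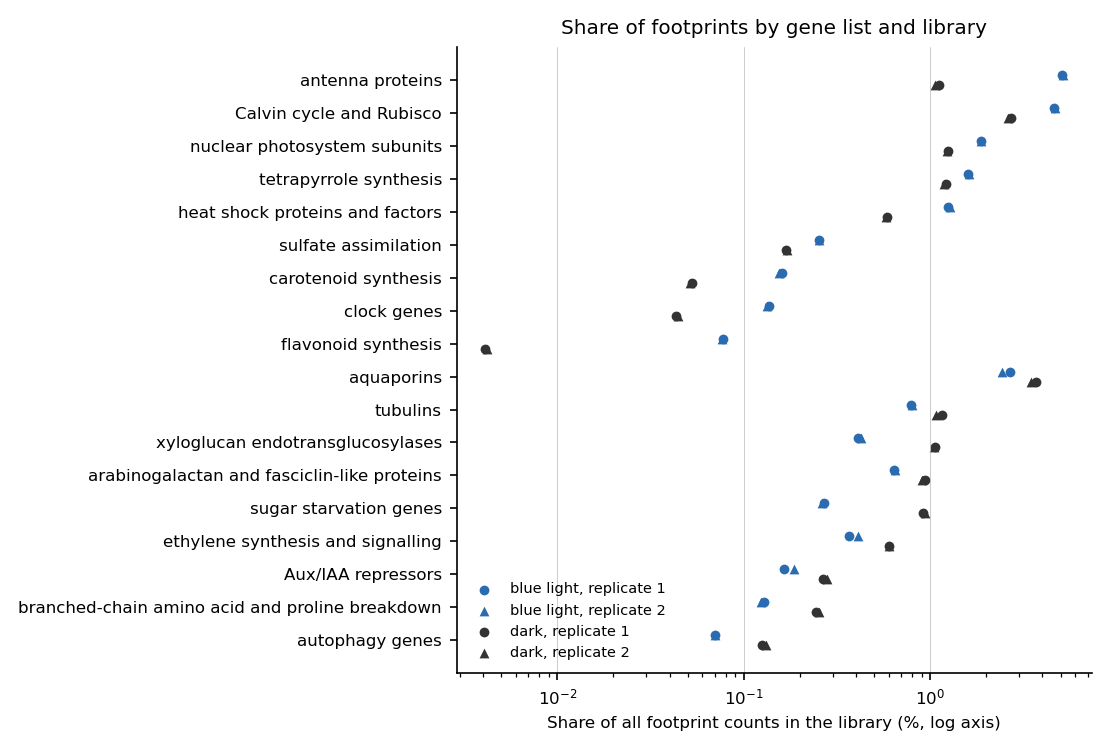
Share of all footprint counts, in percent on a log axis, taken by the members of 18 gene lists in each of the 4 libraries, blue light in blue and dark in black. The replicates of a condition nearly coincide; antenna proteins took 5.07% and 5.16% in blue light against 1.11% and 1.06% in the dark, while xyloglucan endotransglucosylases took 0.412% and 0.426% in blue light against 1.06% and 1.05% in the dark.

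Transcription factor families differed in how they divided. Over all tested loci 20.9% rose and 16.9% fell, so a count near these shares is no finding about a family. B-box zinc finger proteins, many of which act with HY5 or COP1, gave 15 rises and 9 falls among 27. COL2, a CONSTANS-like member, had 160.1 and 169 CPM in blue light, against 15.8 and 14.1 CPM in the dark, a log2 change of 3.46 ± 0.13, and BBX15 had 74.4 and 82.7 CPM in blue light, against 12.9 and 13.2 CPM in the dark. BBX16, picked after its values were seen, had 24 and 20 counts in blue light, against 0 and 0 in the dark. BBX21, known as a promoter of light-driven development and likewise picked after its values were seen, fell with 128 and 129.9 CPM in blue light, against 328 and 328 CPM in the dark, a log2 change of -1.34 ± 0.08. Few of its tested members were left uncalled, and its log2 changes ran over a wide range in both directions.

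Of 22 tested GATA factors 3 rose and 4 fell, and 15 were not called, where 20.9% of all tested loci rose and 16.9% fell. These counts say nothing particular of the family. Its B-class factors CGA1 and GNC, which promote chlorophyll synthesis and chloroplast development, both rose. CGA1 had 121 and 128 CPM in blue light, against 0.323 and 0.879 CPM in the dark, the largest log2 change under the naming rule at 7.58 ± 0.24, and GNC had 142 and 156 CPM in blue light, against 26.8 and 27.6 CPM in the dark, a log2 change of 2.45 ± 0.11. GATA4 fell with 18.9 and 18.6 CPM in blue light, against 73.7 and 81.5 CPM in the dark, a log2 change of -2.04 ± 0.13. GATA2, picked after its values were seen, fell with a log2 change of -1.61 ± 0.20.

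Among bZIP factors 8 of 44 rose, near the 20.9% of all tested loci, and 12 fell. With library totals 6 rose and 20 fell. The falls came to 5 without the first blue-light library and 7 without the first dark library, which also left 5 rises. HYH, the close relative of HY5, had 48.9 and 49.5 CPM in blue light, against 4.53 and 4.40 CPM in the dark, a log2 change of 3.45 ± 0.20. ABF3 and GBF3, bZIP factors of abscisic acid and G-box regulation, changed by 1.30 ± 0.08 and 1.32 ± 0.11. Among the listed bHLH factors 7 of 29 rose, near the 20.9% of all tested loci, and 10 fell. With library totals 4 rose and 14 fell. The list is part of the family and leaves out CIB1, whose fall is given above. The phytochrome-interacting factors did not move as one. PIL6, also known as PIF5, rose with 107 and 111 CPM in blue light, against 24.9 and 26.7 CPM in the dark, a log2 change of 2.08 ± 0.12. PIF3 fell with 34.8 and 33.2 CPM in blue light, against 63.7 and 71.2 CPM in the dark, a log2 change of -0.99 ± 0.12. KDR, a small bHLH protein that promotes elongation, had 23.6 and 32.9 CPM in blue light, against 80.2 and 74.7 CPM in the dark.

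R2R3 and related MYB factors gave 15 rises and 9 falls among 48 with TMM, and 11 rises and 16 falls with library totals. All 15788 tested loci turned likewise, from 3304 rises and 2671 falls with TMM to 2259 and 4998 with library totals. The turn is therefore not particular to the family of MYB factors. Without the first dark library 5 fell. Its largest rises lay on low loci picked after their values were seen. PAP1 (AT1G56650), also called MYB75, the activator of anthocyanin synthesis, had 56 and 46 counts in blue light, against 0 and 1 in the dark, and MYB111, an activator of flavonol synthesis, had 39 and 33 counts in blue light, against 2 and 2 in the dark. MYB13 had 38.5 and 44.3 CPM in blue light, against 0.647 and 1.76 CPM in the dark, a log2 change of 5.02 ± 0.29. MYB4, a repressor of sinapate ester synthesis, also rose, by a log2 change of 1.01 ± 0.15.

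Families tied to growth, defence and hormone response fell more often than they rose. In HD-Zip classes I and II 2 of 18 rose and 10 fell. HB-2, a shade-induced factor also called ATHB2, had 6.17 and 7.28 CPM in blue light, against 60.1 and 56.6 CPM in the dark, a log2 change of -3.13 ± 0.17, and HB52 had 12.6 and 23.9 CPM in blue light, against 156 and 149 CPM in the dark, a log2 change of -3.11 ± 0.15. HB5 went the other way with 107 and 122 CPM in blue light, against 52.4 and 48.1 CPM in the dark. Among 33 WRKY factors, known mainly from defence, 1 rose and 10 fell, and the falls came to 5 without the first blue-light library and 4 without the second. By the DESeq2 Wald test 0 WRKY factors rose and 3 fell, and 2 HD-Zip factors rose and 6 fell. Over all 15788 tested loci that test called 2078 rises and 1186 falls. The 3 falls among 33 WRKY factors are near that share of falls. In the family of ethylene response and DREB factors, counted together with the AP2/B3 proteins, 8 of 27 rose and 10 fell. RAP2.7, a repressor of flowering also called TOE1, had 134 and 128 CPM in blue light, against 15.2 and 18.5 CPM in the dark, a log2 change of 2.95 ± 0.13. The AP2/B3 factors RAV1, TEM1 and EDF3 all fell, with log2 changes of -2.55 ± 0.10, -2.03 ± 0.12 and -2.93 ± 0.18. RAV1 had 37.9 and 31.2 CPM in blue light, against 202 and 206 CPM in the dark.

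**Figure D4:**
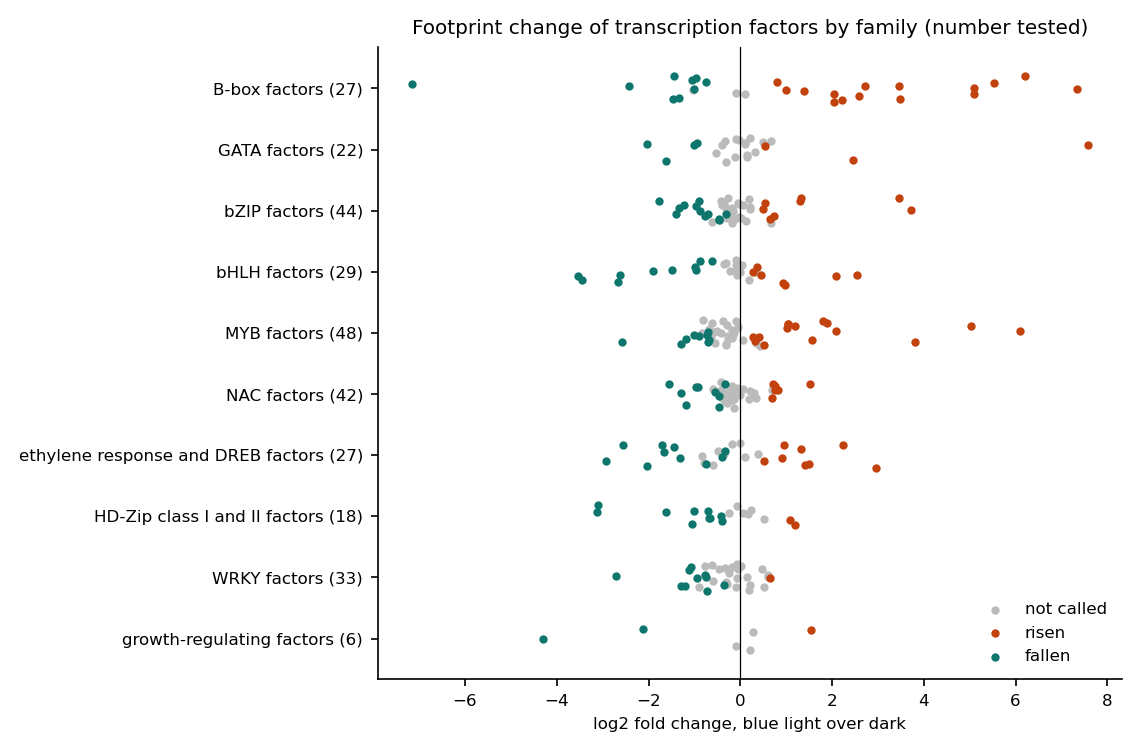
Fitted log2 fold change (blue light over dark) of each tested member of the lists for 10 transcription factor families, 1 point per gene, coloured by its call. B-box factors spread widely to both sides with 15 risen and 9 fallen of 27, while HD-Zip and WRKY factors lie mostly below 0.

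Cell wall loosening and elongation genes fell broadly. Of 26 xyloglucan endotransglucosylases 17 fell and 4 rose, with a median log2 change of -0.64. XTH30 had 125 and 123 CPM in blue light, against 371 and 309 CPM in the dark, and XTH5 had 22.9 and 23.6 CPM in blue light, against 53.7 and 63.6 CPM in the dark, log2 changes of -1.45 ± 0.09 and -1.34 ± 0.14. XTH32 went against most of its family, with 214 and 207 CPM in blue light, against 19.4 and 15.2 CPM in the dark, a log2 change of 3.61 ± 0.12. Expansins, which loosen walls at acid pH, gave 10 falls and 4 rises among 24. The DESeq2 Wald test called 5 falls and 3 rises of expansins. For the xyloglucan endotransglucosylases it called 12 falls and 4 rises. EXPA9 had 124 and 114 CPM in blue light, against 404 and 361 CPM in the dark, a log2 change of -1.68 ± 0.08, and EXPA1 rose by 1.01 ± 0.11.

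Of 12 tested pectin methylesterases and their inhibitors 9 fell and 1 rose, of 15 tubulins 9 fell and 1 rose, and of 38 arabinogalactan and fasciclin-like proteins 16 fell and 4 rose. Without the first blue-light library the falls of this last list came to 10. TUB8, a beta-tubulin, had 202 and 205 CPM in blue light, against 397 and 386 CPM in the dark, a log2 change of -0.95 ± 0.07. Of 27 aquaporins 13 fell and 5 rose, with 1 rise without the first blue-light library and 2 without the second dark library. PIP2;4, an aquaporin of the plasma membrane, had 445 and 424 CPM in blue light, against 660.3 and 619 CPM in the dark, and the vacuolar DELTA-TIP had 2407 and 2243 CPM in blue light, against 3733 and 3179.9 CPM in the dark. Of 19 histones 11 fell and 1 rose, with a median of -0.59, and HTB9, a histone H2B, had 149.5 and 157 CPM in blue light, against 249 and 257 CPM in the dark. Of 12 class III peroxidases 8 fell and none rose, with 5 falls without the first blue-light library. Root and root hair markers had 4 falls and 1 rise among 8 tested genes, and their part in these falls was not tested. Cellulose synthases and related genes ran the other way with TMM, 13 rises and 2 falls among 36. With library totals the counts were 9 and 7 and the median was -0.01, against -0.244 for all tested loci. CESA5, a subunit of the cellulose synthase of growing walls, had 173 and 162 CPM in blue light, against 75.02 and 68.6 CPM in the dark, a log2 change of 1.23 ± 0.09.

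Auxin genes were among the falling groups. Of 24 Aux/IAA repressors, which keep auxin response genes off, 12 fell and 2 rose. IAA19 had 40.96 and 55.1 CPM in blue light, against 128 and 148 CPM in the dark, a log2 change of -1.55 ± 0.12, and ATAUX2-11, also called IAA4, had 86.3 and 102 CPM in blue light, against 178 and 193 CPM in the dark. Of 46 SAUR genes, short auxin-induced messages, 20 fell and 7 rose, and the rises came to 4 without the first blue-light library and 3 without the second dark library. Over the same 46 genes the falls came to 13 without the first blue-light library. With the DESeq2 Wald test 10 SAUR genes fell and 3 rose. SAUR17 (AT4G09530) and SAUR14 (AT4G38840), without a symbol in the reference table and picked after their values were seen, sat at opposite ends. SAUR17 had 2 and 1 counts in blue light, against 25 and 43 in the dark, and SAUR14 had 222 and 170 counts in blue light, against 10 and 19 in the dark.

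Gibberellin genes gave 6 rises and 7 falls among 17. A pair of enzymes with opposite functions, low in counts and picked after their values were seen, moved apart. ATGA2OX1, which inactivates gibberellin, had 132 and 95 counts in blue light, against 0 and 5 in the dark, and GA20OX2, which makes its precursors, had 3 and 1 counts in blue light, against 15 and 13 in the dark. GASA4, of the gibberellin-stimulated peptide family, had 1649 and 1698 CPM in blue light, against 969 and 1004 CPM in the dark, a log2 change of 0.76 ± 0.06, and its relative GASA6 had 59.02 and 45.4 CPM in blue light, against 125 and 139.5 CPM in the dark, a log2 change of -1.32 ± 0.11. GAI, a DELLA protein that holds back gibberellin responses, fell with 38.1 and 41.4 CPM in blue light, against 94.4 and 109.9 CPM in the dark. SPA3, a partner of the COP1 ligase, rose with 61.7 and 63.2 CPM in blue light, against 6.47 and 6.74 CPM in the dark, a log2 change of 3.23 ± 0.18. BAS1, a cytochrome P450 that inactivates brassinosteroids, fell with a log2 change of -1.46 ± 0.16.

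Genes of carbon starvation and breakdown mostly fell. Of 19 sugar starvation genes 17 fell and 2 rose, with a median of -1.18. ASN1, a dark-induced asparagine synthetase, had 182 and 184 CPM in blue light, against 916 and 905 CPM in the dark, a log2 change of -2.32 ± 0.07. DIN9, a mannose-6-phosphate isomerase, went against most of its list, with 115 and 109 CPM in blue light, against 14.9 and 15.8 CPM in the dark. Of 19 genes of branched-chain amino acid and proline breakdown 14 fell and 2 rose. IVD, isovaleryl-CoA dehydrogenase of leucine breakdown, had 108 and 91.5 CPM in blue light, against 218 and 239.8 CPM in the dark, BCAT-2, a branched-chain aminotransferase, had 46.03 and 45.2 CPM in blue light, against 112 and 127 CPM in the dark, and MCCA, a subunit of methylcrotonyl-CoA carboxylase, changed by -1.14 ± 0.09. Of 32 autophagy genes 16 fell and 1 rose, with 10 falls without the first blue-light library. Under the DESeq2 Wald test 9 autophagy genes fell and 0 rose. ATG8E and ATG8F, ubiquitin-like proteins of the autophagosome, changed by -1.45 ± 0.11 and -1.43 ± 0.10. ATG8F had 66.1 and 68.2 CPM in blue light, against 165 and 196 CPM in the dark.

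Of 22 tested sugar transporters 6 rose and 9 fell with TMM, and 5 rose and 10 fell with library totals. Without the first blue-light library 4 rose and 7 fell. Of 8 trehalose phosphate synthases 4 fell and 1 rose. TPS9, TPS8 and TPS10 fell with log2 changes of -1.23, -1.02 and -0.97, and TPS5 rose by 0.81 ± 0.14. STP1, a hexose importer of the plasma membrane, had 231 and 209 CPM in blue light, against 644 and 638 CPM in the dark, a log2 change of -1.54 ± 0.07. SWEET2, a vacuolar sugar carrier, had 86.8 and 85.1 CPM in blue light, against 6.79 and 5.86 CPM in the dark, a log2 change of 3.76 ± 0.17.

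**Figure D5:**
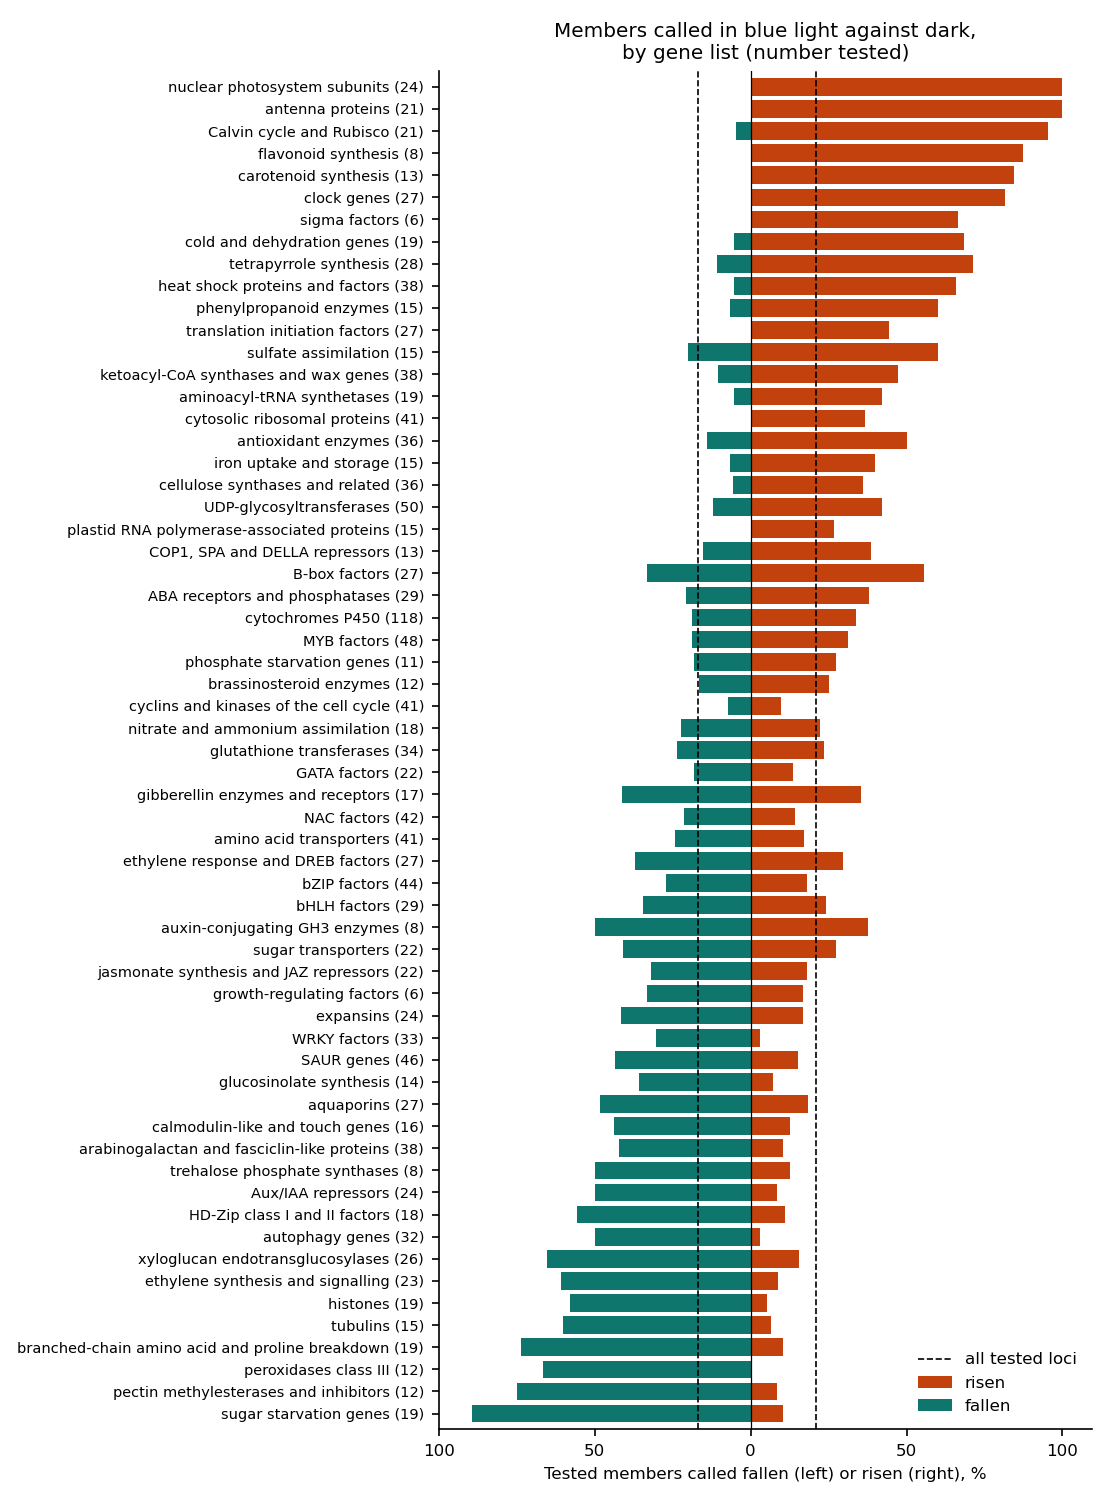
Percent of tested members called risen (right) or fallen (left) in each gene list, with the number tested in brackets and dashed lines at the values for all tested loci, 20.9% and 16.9%. Photosynthesis, pigment and clock lists reach furthest right, and sugar starvation, pectin methylesterase, peroxidase and amino acid breakdown lists furthest left.

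Ethylene genes mostly fell, with 1 strong exception. Of 23 genes of ethylene synthesis and signalling 14 fell and 2 rose, with a median of -0.72. ERS1, an ethylene receptor, had 25.1 and 24.8 CPM in blue light, against 59.8 and 60.1 CPM in the dark, a log2 change of -1.26 ± 0.13. EBF1 and EBF2 are F-box proteins that target the ethylene factor EIN3 for breakdown, and they moved in opposite directions. EBF1 rose with 128 and 107 CPM in blue light, against 9.70 and 14.4 CPM in the dark, a log2 change of 3.28 ± 0.15. EBF2 fell with 22.5 and 27.4 CPM in blue light, against 52.4 and 58.04 CPM in the dark, a log2 change of -1.16 ± 0.14. The mRNA values were -1.35 for EBF1 and -1.86 for EBF2, so for EBF1 the footprint and mRNA values had opposite signs. EBF1 had 21 and 22 mRNA counts in blue light, against 67 and 76 in the dark, and the difference between its footprint and mRNA changes was not tested.

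Chaperone and cold-related genes mostly rose. Of 38 heat shock proteins and factors 25 rose and 2 fell, with a median of 1.03. HSP70, an inducible cytosolic chaperone, had 504 and 565 CPM in blue light, against 97.01 and 92.04 CPM in the dark, a log2 change of 2.50 ± 0.08, and HSP101, a disaggregase, had 56.4 and 57.97 CPM in blue light, against 12.6 and 12.9 CPM in the dark. Of 19 cold and dehydration genes 13 rose and 1 fell. COR413-PM1, a cold-regulated membrane protein, had 1291 and 1178 CPM in blue light, against 273 and 278 CPM in the dark, and LTI78, also called RD29A, had 253 and 265 CPM in blue light, against 46.2 and 56.9 CPM in the dark. KIN2 changed by 2.93 ± 0.12. KIN2 and the HSP70 genes have close copies, so their values are uncertain in the same way as those of the antenna genes. In abscisic acid signalling 11 of 29 genes rose and 6 fell with TMM, but 8 rose and 11 fell with library totals. Without the first dark library 3 fell. HAB1, a phosphatase that blocks the signal, rose with 47.3 and 45.2 CPM in blue light, against 10.3 and 12.3 CPM in the dark, and SNRK2.3, a kinase that carries it, fell with 24.2 and 25.6 CPM in blue light, against 57.9 and 62.1 CPM in the dark. TIFY7, a JAZ repressor of jasmonate responses, had 47.1 and 38.7 CPM in blue light, against 12.3 and 11.4 CPM in the dark.

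In the translation machinery, the sign of the median change of the listed ribosomal proteins rested on the scaling. Of these 41 cytosolic ribosomal proteins, which are part of the family, 15 rose and none fell with TMM, with a median of 0.16. With library totals 4 rose and 8 fell, and the median was -0.06. The median of all tested loci was -0.018 with TMM and -0.244 with library totals. The median of the ribosomal proteins lay above it under both. With TMM, 8 rose without the second blue-light library and 9 without the second dark library. Of 27 initiation factors 12 rose and none fell with TMM, against 8 and 2 with library totals, where the median was -0.02. TRIP-1 and EIF3E, subunits of initiation factor eIF3, were among the risen members. TRIP-1 had 151 and 136 CPM in blue light, against 77.3 and 66.8 CPM in the dark, and EIF3E had 152 and 163 CPM in blue light, against 93.8 and 79.1 CPM in the dark. Of 19 aminoacyl-tRNA synthetases 8 rose and 1 fell with TMM, with a median of 0.31, and 5 rose and 2 fell with library totals, where the median was 0.08. No fall was called there without either blue-light library or without the second dark library. EDD1, a glycyl-tRNA synthetase of organelles, changed by 0.73 ± 0.15, and TWN2, a valyl-tRNA synthetase, by 0.50 ± 0.09. Cyclins and kinases of the cell cycle were mostly not called, with 4 rises and 3 falls among 41 with TMM and 3 rises and 5 falls with library totals.

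CRY3, a cryptochrome of organelles that repairs single-stranded DNA, had 134 and 139.5 CPM in blue light, against 9.38 and 5.28 CPM in the dark, a log2 change of 4.23 ± 0.16 (adjusted p = 6.50e-19, edgeR). PHR1, the DNA photolyase at AT1G12370, picked after its values were seen, had 58 and 57 counts in blue light, against 1 and 2 in the dark. CRY2, the light-labile blue light receptor, fell with 120.2 and 125 CPM in blue light, against 164 and 159 CPM in the dark, a log2 change of -0.40 ± 0.08.

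The mRNA libraries give a companion value for 6169 of the 15788 loci, those that passed the same count filter there. Of the loci whose footprints rose at least 2-fold, 682 had an mRNA value and 504 of these (73.9%) were above 0, with a median mRNA log2 change of 0.53. Of the loci whose footprints fell at least 2-fold, 249 had one and 47 (18.9%) were above 0, with a median of -0.70. Over all 6169 loci 49.2% were above 0. The footprint calls set these groups, so the shares are a description and carry no test.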

How the data were processed

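The authors deposited, for each of the 4 footprint libraries, raw counts of reads per gene model. Per the submitters' processing notes, the build was TAIR10 and the tools included TopHat2 2.0.9 with Bowtie2 2.1.0, as well as CASAVA 1.8. The deposited files also give a second number per model that resembles coding length in codons. From these counts, 1 model was kept per locus (the longest, ties to the lowest number), which left 27416 loci, of which 26719 matched the TAIR10.1 RefSeq gene table and 10376 had a symbol there. Total counts ran between 2888624 and 4919808 per library. edgeR 4.0.16 (R 4.3.3) was used with filterByExpr (minimum count 10), TMM scaling and the quasi-likelihood test of blue light over dark, with Benjamini-Hochberg adjustment over 15788 loci and a threshold of 0.05. Errors of log2 changes are SE from this fit, with n = 2 libraries per condition; the median SE was 0.189. On simulated counts for these loci the fit recovered 71.4% of changes of 1 and 100% of changes of 2 on the log2 scale, with 5 false calls among 15302 unchanged loci. The simulation used 1 common spread for all loci and changed far fewer loci than were called here. Its rates may therefore not hold for the data.

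Genes are named by rule: called nuclear loci with a symbol, a mean of at least 100 counts and no overlap between conditions, taking the 20 largest rises and falls, the 12 largest gains and losses in CPM, and up to 4 called members per list with the largest change. Genes outside the rule are marked where they appear, and 1 of the 12 largest losses in CPM is not reported here. The members and gene lists were chosen with earlier results of these data known, so lists are described by counts and medians and carry no test of their own. Lists were drawn up by gene name or locus and can hold only part of a family. Alternatives tried were library totals, the Wald test of DESeq2 1.42.0 and its size factors in edgeR, voom with limma 3.58.1, no count filter, a stricter filter, nuclear loci only, the lowest-numbered model, a replicate block, a test against a 2-fold change and leaving out each library. No sequence is printed.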

Additional observations from a re-analysis of the deposited data

How the results depend on the processing

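Of the counts of risen and fallen loci, those under DESeq2 size factors in edgeR, limma-voom, no count filter, nuclear loci only and the lowest-numbered model stayed within 1.5 times the values reported. With library totals without TMM, a setting chosen after seeing the data, falls came to 4998 and falls of at least 2-fold to 1185. The DESeq2 Wald test called 2078 rises and 1186 falls. A filter of 10 CPM in 2 libraries left 430 falls of at least 2-fold. A test against a 2-fold change itself (edgeR's glmTreat) called 800 rises and 253 falls. Leaving out 1 library at a time gave 2716 to 2960 rises, 1802 to 2070 falls, 1377 to 1477 rises of at least 2-fold and 594 to 664 falls of at least 2-fold, where the lone library of a condition is assumed to vary like the others. With the replicate number as a block, 3331 loci rose and 2672 fell. Same-numbered libraries deviated with a correlation of 0.00807 across loci. Counting noise at low loci can hide a shared deviation, so this does not settle whether the numbers pair the libraries. Depth limits small changes: 12.8% of log2 changes of 0.5 were recovered in the simulation, which used 1 common spread. Most named genes were picked as called genes with large changes, so their calls were likely to hold and are no test of the settings. The rule gave 264 genes, and some left unnamed lost their call, such as WRKY17 under the DESeq2 Wald test. The test against a 2-fold change was read only for counts over all loci. The alternatives that follow, for named genes and lists, leave it out. For the 177 named genes every alternative kept the direction, and 2114 of 2116 values kept their side of the threshold (all but TPI's without a library); all 177 did so with library totals. Of the list counts 1091 of 1200 stayed within 1.5 times, and 66 of 100 with library totals; most of the others were counts of a few members or came from the DESeq2 Wald test.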
